A study of Mus musculus with 6 samples.

Results

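The genes described here are 45 mouse interferon-stimulated genes, a list of symbols of classical targets of interferon signalling. For each gene the brightest probe set that names that gene alone was used, and 43 of the 45 had such a probe set, among 18193 genes in all. Isg15 and Ifi44 had none and were not analysed here. Expression was measured on 6 single-colour arrays of RNA from sorted Flt3- Lin- Sca1+ cKit+ mouse cells, a population enriched for haematopoietic stem and progenitor cells. The 3 Raptor mutant arrays came from C57BL/6 mice with both alleles of the Raptor gene (Rptor) floxed at exon 6 and with the Mx-Cre transgene. The 3 wild type arrays came from mice with the same floxed alleles and no Mx-Cre. In this transgene the recombinase Cre is driven by the interferon-responsive Mx1 promoter. Both groups were injected with pIpC (polyinosinic-polycytidylic acid, a double-stranded RNA mimic that induces interferon) at 15 µg per g body weight, 3 times over 5 days, and the sort followed 5 weeks later. There was no group without pIpC, so the effect of pIpC itself was not measured, and the comparison is that of mutant with wild type cells long after the injections. Raptor is the defining subunit of the growth-promoting kinase complex mTORC1.

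Type I interferons bind a receptor of the subunits Ifnar1 and Ifnar2, which activates the kinases Jak1 and Tyk2. Phosphorylated Stat2 joins Irf9 in the complex ISGF3, which binds the interferon-stimulated response element (ISRE) in the promoters of target genes. Interferon gamma acts through the gamma-activated site (GAS) and induces an overlapping set of genes. In haematopoietic stem cells interferon and pIpC are known to bring quiescent cells into cycle for a short time. The surface protein Sca1, used in the sort, is itself interferon-induced. Its gene Ly6a had no probe set that names it alone and was not analysed here.

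The arrays differed in ways other than genotype. The Y-linked genes Eif2s3y and Kdm5d stood at log2 signals of 3.69 to 4.53 on the 3 mutant arrays and of 3.60 and 3.98 on wild type array 1, but of 9.53 to 10.81 on wild type arrays 2 and 3. The labels give no sex. Only wild type array 1 therefore shares the absence of Y-linked signal with the mutants, and the differences of the main members from that array are given beside their fold changes. The median log2 signal of an array was 6.85 to 6.94. The probe set of the targeted gene Rptor had log2 signals of 8.68, 7.99 and 8.33 in mutant and of 8.57, 8.17 and 7.59 in wild type arrays (limma adjusted p = 0.77), and its place relative to exon 6 was not analysed here. Of 10 measured markers of the sorted cells, 8 lay above the upper quartile of every array. Flt3, whose protein the sort selects against, also lay above it, at 9.64 to 10.18 on mutant and 9.51 to 10.79 on wild type arrays. Each array is a bulk sample, in which fewer cells of a type and less RNA per cell cannot be told apart. Nothing in the labels says that the arrays of a group are separate mice, and a p-value here reflects only array-to-array spread, some of which may be technical.

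Among the 43 genes, 1 fell in Raptor mutant cells, 0 rose and 42 did not pass the test. The gene that fell was Rsad2. Called here means a Benjamini-Hochberg adjusted p under 0.05 over all 18193 genes in limma, a rule that 0.110% of all genes met in either direction and 0.0550% in the downward direction. At an unadjusted p under 0.05 the members held 9 lower and 2 higher genes, or 20.9% and 4.65%, against 4.24% and 5.81% of all genes. In 9 members the 3 mutant values all lay below the 3 wild type values (20.9%, against 7.98% of all genes), and in 3 members they all lay above (6.98%, against 8.08%). A log2 fold change, here always mutant minus wild type, was below -1 in 5 members (11.6%, against 0.962% of all genes), which were Rsad2, Ifi27l2a, Ifit1, Oas3 and Ifit3. The median log2 fold change was -0.11 for the members and -0.07 for all genes, and 60.5% of members and 59.6% of all genes lay below 0. The medians lay farther apart in some alternatives. When a gene's probe sets were averaged they were -0.23 for members and -0.06 for all genes. Against wild type array 1 they were -0.37 and 0.04. With the dimmer 50% of genes left out they were -0.09 for the remaining members and 0.06 for the remaining genes. Without wild type array 1 they were -0.07 and -0.11, and without mutant array 3 both were -0.07. The count below -1 was 3 without wild type array 2 (Rsad2, Ifit1 and Oas3), 3 without mutant array 2 (Rsad2, Ifit1 and Ifi27l2a) and 6 against wild type array 1.

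**Figure D1:**
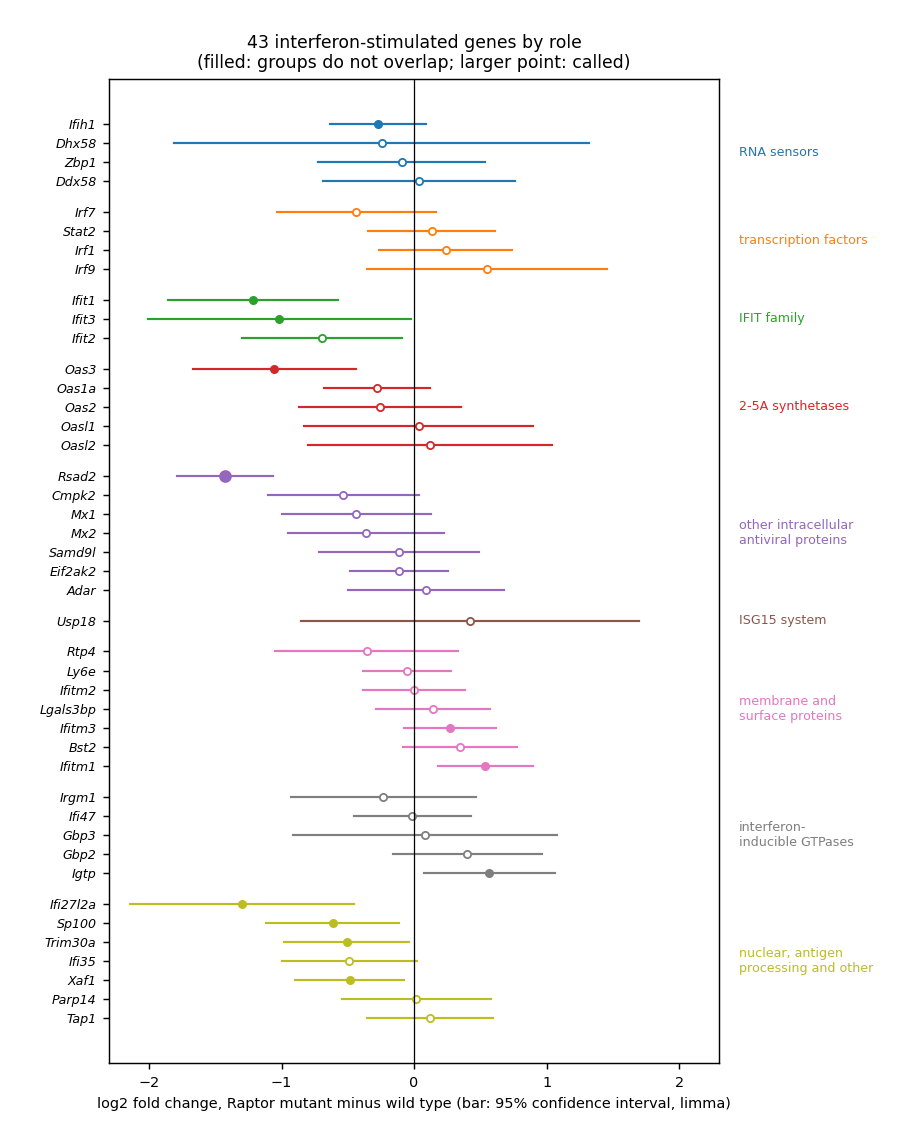
Log2 fold change (x axis, Raptor mutant minus wild type) of the 43 measured members grouped by role, with 95% confidence intervals from limma. Filled points mark genes whose groups do not overlap and the larger point marks Rsad2, the only member called; the lowest values are those of Rsad2 (-1.43) and Ifi27l2a (-1.30), and the highest is that of Igtp (0.57).

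Rsad2 encodes viperin, a radical SAM enzyme that makes a chain-terminating nucleotide and so blocks viral RNA synthesis. Its log2 signal was 9.15, 9.12 and 8.85 in mutants, against 10.49, 10.47 and 10.45 in wild type. All mutant values lay more than a log2 unit below all wild type values, and the 3 wild type values were nearly equal. Rsad2 fell by 1.43 ± 0.16 on the log2 scale (SE, n = 3 each), or 2.69-fold, with a limma adjusted p of 0.030. Against wild type array 1 alone the difference was -1.44. Some alternatives, such as the replicate block, leave a fold change as it is. In every alternative with a single value for the gene the log2 fold change lay between -1.49 and -1.20, but the call did not hold. It was lost without any of the 6 arrays in turn (adjusted p 0.064 to 0.156), when every probe set was tested as a feature of its own, with the replicate number as a block, with the mean of the gene's 3 probe sets and among the 4 arrays without Y-linked signal (adjusted p of 0.106, 0.135 and 0.247 for the last 3). For the dimmer Rsad2 probe sets the log2 fold change was -1.51, without overlap, and -0.68, with overlapping groups. Cmpk2, a mitochondrial nucleotide kinase whose gene lies next to Rsad2 and is induced with it, differed by -0.53 ± 0.25 on the log2 scale (SE, adjusted p = 0.53), with overlapping groups.

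The IFIT proteins bind viral RNA that lacks the cap methylation of host mRNA. Ifit1 had log2 signals of 7.48, 8.13 and 7.75 in mutants, against 9.18, 9.36 and 8.46 in wild type. Its groups did not overlap, with a log2 fold change of -1.21 ± 0.28 (SE) and an adjusted p of 0.19, and the difference from wild type array 1 was -1.39. Ifit3 stood at 7.38, 7.40 and 7.86 in mutants, against 7.98, 9.63 and 8.07 in wild type. Its difference of -1.02 ± 0.43 (adjusted p = 0.49) rested largely on wild type array 2, and against wild type array 1 it was -0.44. Ifit2, with values of 9.52, 9.01 and 8.96 in mutants against 10.26, 9.91 and 9.41 in wild type, differed by -0.69 ± 0.26 on the log2 scale (SE, adjusted p = 0.45) and groups that overlapped by a single mutant value. Against wild type array 1 it was -1.09. The 3 family members were all lower in mean in mutants, and none passed the test.

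The promoters of these genes are shown because ISGF3 acts through an element in the promoters of its target genes. Promoter windows of 300 bases, from 250 before to 50 after the gene start, came from RefSeq on GRCm38.p6 and were found for 35 of the 45 genes. The ISRE core was searched as GAAA, any 2 bases and GAAA again, on both strands. Matches may overlap one another, and those of the GAS core, TTCNNNGAA, were counted separately. Of all 32851 windows 3.44% held the ISRE core and 8.3% the GAS core. Among the 43 windows of members 44.2% held the ISRE core and 20.9% the GAS core. The stretches below end at the base before the gene start and belong to the members whose groups did not overlap and which hold an ISRE core before the start. They are read 5′ to 3′ on the strand of the gene, with the ISRE core in capitals. They lie at chr12:26456453-26456587 (Rsad2, minus strand), chr19:34640770-34640888 (Ifit1, plus), chr19:34583358-34583528 (Ifit3, plus), chr5:120777660-120777749 (Oas3, minus), chr7:104465194-104465244 (Trim30a, minus) and chr11:58199506-58199555 (Igtp, plus).
Rsad2: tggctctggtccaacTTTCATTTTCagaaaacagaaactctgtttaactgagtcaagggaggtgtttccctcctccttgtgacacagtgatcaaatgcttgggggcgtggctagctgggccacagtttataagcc
Ifit1: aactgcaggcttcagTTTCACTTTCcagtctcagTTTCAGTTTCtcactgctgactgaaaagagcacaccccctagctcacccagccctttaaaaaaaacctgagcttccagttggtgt
Ifit3: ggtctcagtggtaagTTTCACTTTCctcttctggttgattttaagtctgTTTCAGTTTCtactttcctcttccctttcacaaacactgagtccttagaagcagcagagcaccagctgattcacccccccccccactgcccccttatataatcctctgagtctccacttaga
Oas3: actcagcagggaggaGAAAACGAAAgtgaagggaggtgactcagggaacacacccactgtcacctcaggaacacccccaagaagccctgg
Trim30a: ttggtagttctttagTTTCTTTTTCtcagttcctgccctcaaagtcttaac
Igtp: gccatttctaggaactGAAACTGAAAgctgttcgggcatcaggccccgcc

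Ifit1 and Ifit3 each held 2 matches before the start, at bases -104 and -85 and at bases -156 and -122, counted from the base before the start as -1. The single matches of Rsad2 and Oas3 began at -120 and -75. Igtp, whose mutant values lay above wild type, held an ISRE core at -34 and a GAS core at -45. The motif was thus present on both sides of the comparison. Of 33 measured members with a window, the 17 with an ISRE core had a median log2 fold change of -0.11 and a range of -1.43 to 0.57, and the 16 without had a median of 0.01 and a range of -0.69 to 0.55. Members whose groups did not overlap numbered 8 with the core (6 lower, 2 higher) and 3 without it (2 lower, 1 higher). Over all genes the groups did not overlap in 16.1% (7.98% lower, 8.08% higher). Ifi27l2a, also without overlap, had no window and is in neither count. Whether members with and without the core differ was not tested. A match describes the letters in the window and no binding was measured.

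**Figure D2:**
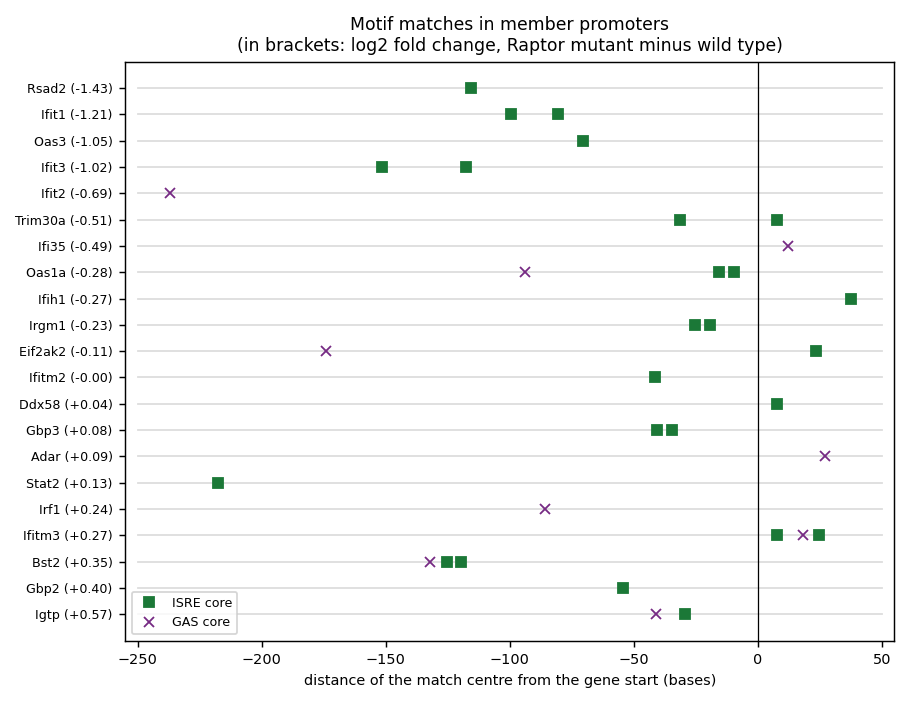
Distance of each ISRE core (square) and GAS core (cross) from the gene start in bases (x axis) for measured members with a match, ordered by log2 fold change (in brackets, Raptor mutant minus wild type). Genes at both ends of the order, Rsad2 (-1.43) and Igtp (0.57), hold the ISRE core.

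The oligoadenylate synthetases sense double-stranded RNA and make a messenger that activates RNase L. Oas3 had log2 signals of 9.10, 8.80 and 8.90 in mutants, against 10.52, 9.48 and 9.95 in wild type. All 3 mutant values lay below wild type, with a log2 fold change of -1.05 ± 0.27 (SE, adjusted p = 0.24) and a difference of -1.59 from wild type array 1. Oas1a and Oas2 had log2 fold changes of -0.28 and -0.26, and the synthetase-like Oasl1 and Oasl2 of 0.03 and 0.12, all with overlapping groups. Oasl2 varied widely between wild type arrays, at 10.01, 8.28 and 8.92, while its mutant values lay between 9.04 and 9.40.

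Other effectors that act inside the cell showed smaller differences. Mx1, a dynamin-like GTPase that traps viral ribonucleoproteins, had log2 signals of 5.09, 5.65 and 5.57 in mutants, against 6.24, 5.51 and 5.86 in wild type. The groups overlapped, with a log2 fold change of -0.43 ± 0.24 (SE, adjusted p = 0.58). Mx1 is the gene whose promoter drives Cre in the mutants, and standard laboratory strains such as C57BL/6 carry a defective allele of it. Mx2 lay below the lower quartile of every array (3.98 to 4.47 in mutant and 4.27 to 5.10 in wild type arrays), so its difference of -0.36 is near the floor of the measurement. Eif2ak2 (the kinase PKR), Samd9l (a translation inhibitor) and Adar (an RNA-editing deaminase) had log2 fold changes of -0.11, -0.11 and 0.09. For PKR the 95% confidence interval ran from -0.48 to 0.26 on the log2 scale. Dimmer probe sets gave 0.21 and 0.09 for Eif2ak2 and 0.01 and 1.15 for Adar, all with overlapping groups.

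Among members of mixed function, Ifi27l2a, a small interferon-induced membrane protein, had log2 signals of 7.03, 6.67 and 6.79 in mutants, against 7.85, 9.01 and 7.52 in wild type. The groups did not overlap, and its log2 fold change was -1.30 ± 0.36 (SE, adjusted p = 0.29). It was -1.02 against wild type array 1 and -0.85 without wild type array 2, the highest value. Sp100, a component of nuclear bodies that restrict DNA viruses, stood at 10.23, 9.87 and 9.98 in mutant and at 10.48, 10.39 and 11.05 in wild type arrays. Xaf1, a pro-apoptotic partner of the inhibitor XIAP, stood at 9.42, 9.37 and 9.56 in mutant and at 9.72, 10.20 and 9.89 in wild type arrays. Trim30a, a ubiquitin ligase family member that restrains inflammatory signalling, stood at 9.85, 9.77 and 9.88 in mutant and at 10.73, 10.03 and 10.27 in wild type arrays. Each of these 3 genes had every mutant value below every wild type value, and their log2 fold changes were -0.61, -0.49 and -0.51 (adjusted p of 0.42, 0.44 and 0.47). Against wild type array 1 Sp100 differed by -0.46, Xaf1 by -0.27 and Trim30a by -0.89, and without that array Trim30a differed by -0.32. A dimmer probe set of Sp100 had a log2 fold change of -0.70, that of Xaf1 -1.15 and that of Trim30a -0.17, and with the mean of its probe sets Xaf1 stood at -0.82. The dimmer Xaf1 probe set stood at 4.05 to 4.36 in mutants and at 4.77, 4.57 and 6.62 in wild type, so its difference rested largely on wild type array 3. Ifi35, Parp14 and Tap1, the last a peptide transporter of antigen presentation, had overlapping groups and log2 fold changes of -0.49, 0.02 and 0.12 by their brightest probe sets. The dimmer Parp14 probe set stood at 7.94, 7.84 and 7.49 in mutants and at 8.02, 8.25 and 8.10 in wild type, without overlap. Its log2 fold change was -0.37 (limma adjusted p over all probe sets = 0.57). Over all members 19 of 25 dimmer probe sets lay below 0, where 59.6% of all genes lay below 0 by their brightest probe set. The share over the dimmer probe sets of all genes was not analysed here. Among the 19 were 3 of Tap1, at -0.46, -0.31 and -0.23. The probe sets at -0.31 and -0.23 had log2 signals of 3.77 to 4.55, below the lower quartile of every array.

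**Figure D3:**
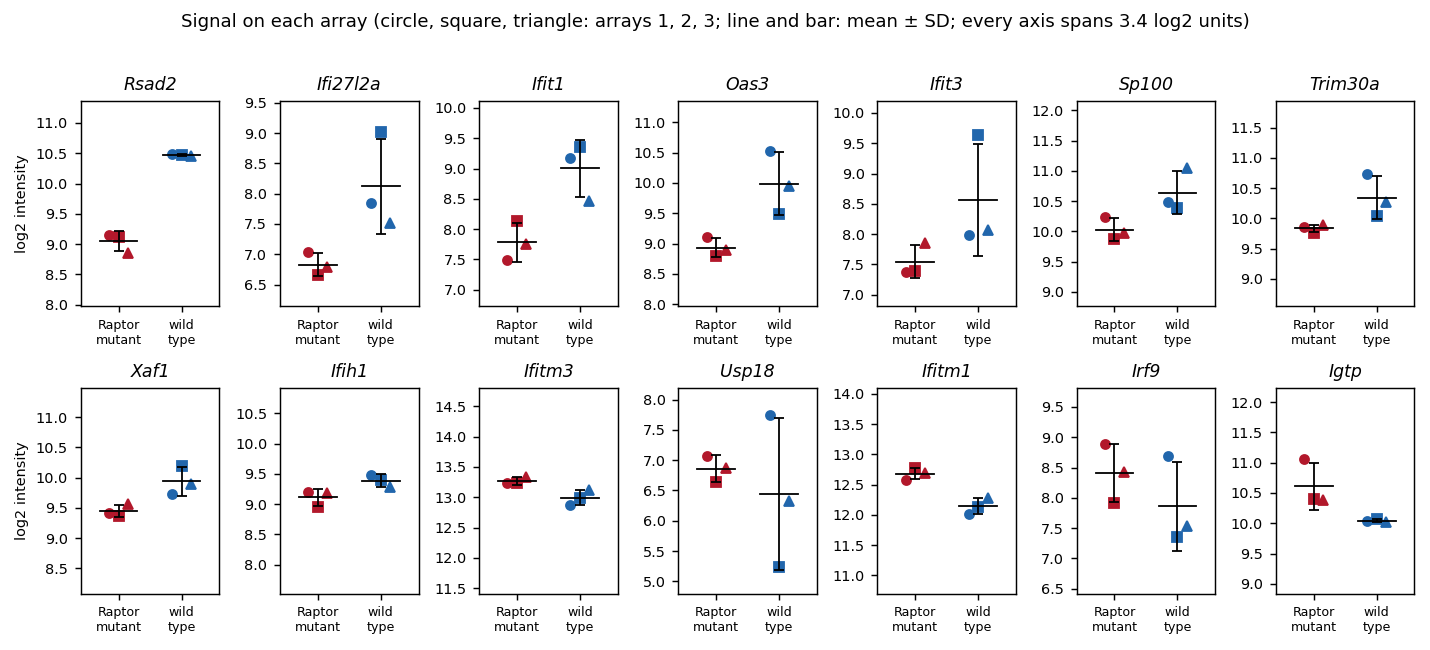
Log2 intensity (y axis) on each Raptor mutant (red, left) and wild type (blue, right) array for 14 members, ordered by log2 fold change; lines and bars are mean ± SD of 3 arrays. Rsad2 separates the groups, at 8.85 to 9.15 in mutant and 10.45 to 10.49 in wild type arrays, whereas Usp18 and Irf9 overlap widely.

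Among the upstream sensors and transcription factors only Ifih1 separated the groups by its brightest probe set. Ifih1 (MDA5), a cytosolic helicase that recognises long double-stranded RNA such as pIpC, had log2 signals of 9.21, 8.96 and 9.18 in mutants, against 9.49, 9.40 and 9.28 in wild type. The groups did not overlap, but the log2 fold change was small, -0.27 ± 0.16 (SE, adjusted p = 0.59), and -0.37 against wild type array 1. Ddx58 (RIG-I), Dhx58 (LGP2) and Zbp1, a sensor of left-handed nucleic acid, had log2 fold changes of 0.04, -0.24 and -0.09. Dimmer probe sets gave -0.32 and -0.57 for Ddx58 and -0.19 and -0.81 for Dhx58. The dimmer probe set of Zbp1 stood at 7.42, 7.43 and 7.43 in mutants and at 7.78, 9.67 and 7.92 in wild type, without overlap, a difference of -1.03 (limma adjusted p over all probe sets = 0.56). Dhx58 varied widely among mutant (SD 1.19) and wild type arrays (SD 1.05), so that its interval, -1.81 to 1.32, covers changes in both directions.

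Irf9, the DNA-binding subunit of ISGF3, had log2 signals of 8.88, 7.92 and 8.43 in mutants, against 8.69, 7.35 and 7.53 in wild type. Its log2 fold change of 0.55 ± 0.39 (SE, adjusted p = 0.65) became -0.28 against wild type array 1 alone. Stat2 and Irf1 had log2 fold changes of 0.13 and 0.24, and Irf7, which amplifies interferon production, one of -0.44 ± 0.26 (adjusted p = 0.61). A dimmer Stat2 probe set had a log2 fold change of -0.43, without overlap. Usp18, which removes Isg15 from proteins and damps signalling at the receptor, stood at 7.07, 6.64 and 6.88 in mutant arrays. In wild type arrays it ranged more widely, at 7.75, 5.24 and 6.33. Its log2 fold change was 0.42 ± 0.55 (SE, adjusted p = 0.77) overall and -0.89 against wild type array 1, so its direction depended on the wild type array used.

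Membrane proteins and interferon-inducible GTPases held the 3 members whose mutant values all lay above wild type. The IFITM proteins block fusion of viruses with endosomal membranes, and Ifitm1 and Ifitm3 are also abundant in unstimulated stem cells. Ifitm1 had log2 signals of 12.58, 12.78 and 12.69 in mutants, against 12.02, 12.14 and 12.28 in wild type. Its log2 fold change was 0.54 ± 0.15 (SE, adjusted p = 0.31) and 0.66 against wild type array 1. Ifitm3 stood at 13.23, 13.23 and 13.34 in mutant and at 12.87, 12.99 and 13.11 in wild type arrays, a difference of 0.27 ± 0.15 (adjusted p = 0.58) and of 0.39 against wild type array 1. Ifitm2 had a log2 fold change of 0.00 with a 95% confidence interval of -0.38 to 0.38. Within this family, then, Ifitm1 and Ifitm3 separated the groups and Ifitm2 did not, and whether they differ from Ifitm2 was not tested.

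Igtp, an immunity-related GTPase induced mainly by interferon gamma, had log2 signals of 11.06, 10.39 and 10.38 in mutants, against 10.04, 10.07 and 10.02 in wild type. Its log2 fold change was 0.57 ± 0.21 (SE, adjusted p = 0.45), and it was 0.57 against wild type array 1 also. Mutant array 1 stood above the other mutant arrays, and without it the difference was 0.35. The related Irgm1 and Ifi47 had log2 fold changes of -0.23 and -0.02, and the guanylate-binding proteins Gbp2 and Gbp3 of 0.40 and 0.08, all with overlapping groups. Bst2 (tetherin), which holds budding virus at the cell surface, differed by 0.35 ± 0.18 on the log2 scale (SE, adjusted p = 0.57). Ly6e, an inhibitor of coronavirus entry, had one of -0.05 with a 95% confidence interval of -0.38 to 0.28. Rtp4 and Lgals3bp had log2 fold changes of -0.36 and 0.14.

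The members' differences depended on the wild type array. Wild type array 1 held the highest value of the 6 arrays in 17 of the 43 members (39.5%), whereas it was highest in 10.7% of all genes. The mean of the mutants lay below wild type array 1 in 31 members (72.1%, against 41.9% of all genes), with a median difference of -0.37 on the log2 scale, against 0.04 for all genes. Set against wild type arrays 2 and 3, it lay below in 27 and 23 members (62.8% and 53.5%, against 59.8% and 60.0% of all genes). The medians were then -0.08 and -0.04 for members and -0.10 and -0.11 for all genes. Over all genes wild type array 1 was the wild type array nearest to the mutants. The median absolute difference between a mutant array and wild type array 1 was 0.173 to 0.216 log2 units over all genes, much as between mutant arrays (0.173 to 0.189). Over the members the same difference was 0.461 to 0.554, against 0.222 to 0.273 between mutant arrays. These are descriptions of 6 arrays, and with a single wild type array without Y-linked signal they carry no test.

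**Figure D4:**
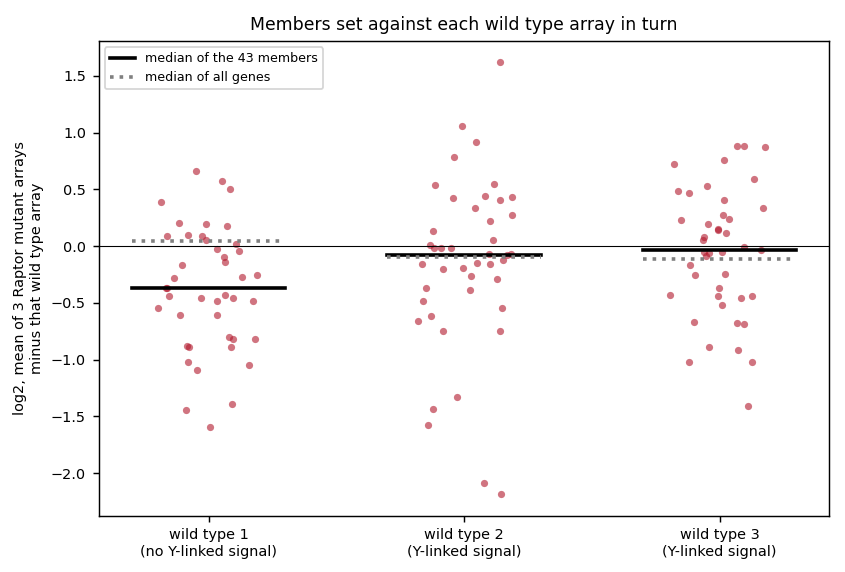
Mean log2 signal of the 3 Raptor mutant arrays minus that of each wild type array (y axis, log2 units; wild type arrays along the x axis) for the 43 members (points), with the median of the members (solid line) and of all genes (dotted line). The members' median is -0.37 against wild type array 1, where that of all genes is 0.04, and lies near that of all genes against the other two.

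Members also varied among arrays of a group. The median SD of a member was 0.22 among mutant and 0.37 among wild type arrays, against 0.16 and 0.29 for all genes, and the SD was larger among wild type arrays in 69.8% of members and 75.8% of all genes. On any array between 37 and 39 of the 43 members lay above the median of all probe sets.

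**Figure D5:**
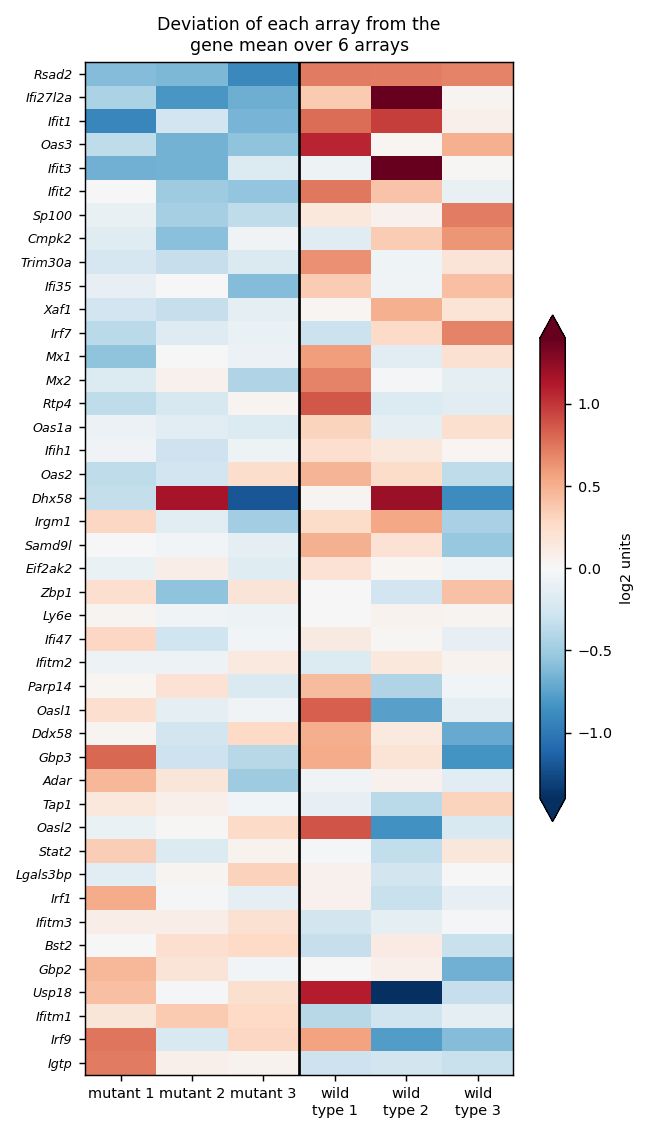
Deviation of each array (columns, Raptor mutant left and wild type right) from a gene's mean over 6 arrays, in log2 units (colour), for 43 members ordered by log2 fold change. The upper genes, from Rsad2 to Ifit3, are below their mean in the mutants, and wild type array 1 is the highest array in 17 members, among them Oas3, Oasl2, Rtp4 and Mx2.

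Genes that produce, receive and relay interferon signals gave no call in limma. Of 10 ligand genes measured (14 listed) 0 were called and 0 had an unadjusted p under 0.05. Ifna5 had log2 signals of 6.57, 6.57 and 6.92 in mutants, against 6.68, 7.30 and 7.61 in wild type. Ifna2, with a log2 fold change of -0.23, stood at 3.63 to 3.83 in mutant and 3.75 to 4.23 in wild type arrays. It lay below the lower quartile of every array, as did Ifna4, Ifna11, Ifnab and Ifng, named after their values were seen. So near the floor of the measurement, the lack of a call says little about a change in these genes. Ifnb1, chosen after its values were seen, stood at 4.90 to 5.24 in mutant and 4.86 to 5.66 in wild type arrays, where the lower quartile was 5.15 to 5.37. Of 9 receptor and kinase genes 0 were called and 0 had an unadjusted p under 0.05. All mutant values lay above wild type in 1 of them, Ifnar1, and below it in 1, Jak1. That is 11.1% each, against 8.08% and 7.98% of all genes. Jak1, added after its values were seen, had a log2 fold change of -0.35 (limma adjusted p = 0.59). Ifnar1 stood at 9.08, 9.08 and 9.14 in mutant and at 8.91, 8.93 and 8.35 in wild type arrays, with no overlap (log2 fold change 0.37 ± 0.20, adjusted p = 0.57). Il10rb, a receptor subunit shared with interleukin 10 and interferon lambda, differed by 1.10 ± 0.51 on the log2 scale (SE, adjusted p = 0.53), and of its wild type values, 9.33, 7.02 and 7.98, the highest lay within the mutant range of 9.04 to 9.36.

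In the relay, 0 of 13 genes measured (15 listed) were called and 1, the kinase gene Ikbke, had an unadjusted p under 0.05 (log2 fold change 0.48, adjusted p = 0.48). Tlr7, the endosomal receptor for single-stranded RNA, had a difference of -0.28 (log2). Among the 10 brakes measured (11 listed) 0 were called and 1, the phosphatase gene Ptpn6, had an unadjusted p under 0.05, with log2 signals of 10.83, 10.76 and 10.78 in mutant and 10.36, 10.56 and 10.39 in wild type arrays. The repressor gene Irf2 had a log2 fold change of -0.30. Of 50 further interferon-induced genes measured (62 listed) 0 were called. At an unadjusted p under 0.05, 7 were lower and 6 higher (14% and 12%, against 4.24% and 5.81% of all genes). Their median log2 fold change was 0.05. It was below -1 in 3 of these genes (Ifi209, Ms4a6b and Ms4a4c) and above 1 in 1 (Gbp6). The checkpoint ligand gene Cd274 (PD-L1) stood at 9.81, 9.65 and 9.55 in mutant and at 9.32, 8.60 and 8.22 in wild type arrays, a difference of 0.96 ± 0.28 (SE, adjusted p = 0.31). Gbp6, another guanylate-binding protein gene, differed by 1.35 ± 0.39 on the log2 scale (SE, adjusted p = 0.31), and its lowest mutant value, 7.37, lay just below the highest wild type value, 7.39.

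Marker genes of other cells also differed in level between the groups, and 1 of them, the neutrophil gene Camp, passed the test. Over 7 measured neutrophil markers the summed linear intensity was 1818 to 5553 in mutants, against 18101 to 26722 in wild type, and in 6 of the 7 all mutant values lay below wild type. Camp, an antimicrobial granule peptide, fell by 3.81 on the log2 scale (adjusted p = 0.030). Over 8 monocyte and macrophage markers it was 1407 to 2151 in mutant and 611 to 915 in wild type arrays, and over 9 dendritic cell markers 8757 to 14691 in mutant and 6604 to 7733 in wild type arrays. Mast cell and basophil markers (6 measured) summed to 4825 to 7808 in mutant and 1958 to 2965 in wild type arrays, and megakaryocyte markers (5) to 1817 to 2806 in mutant and 4316 to 5006 in wild type arrays. The lowest adjusted p was 0.078 among the monocyte and macrophage, 0.10 among the dendritic, 0.072 among the mast cell and basophil and 0.14 among the megakaryocyte markers, so 0 of these were called. Within the dendritic list the largest rises were those of the antigen presentation genes H2-Aa, Cd74 and H2-Ab1, with log2 fold changes of 2.13, 1.90 and 0.83. The transcription factor genes Tcf4 and Irf8 stood at -0.27 and -0.12, and all mutant values of Tcf4 lay below wild type. The list also holds the member Bst2. Markers of the sorted stem and progenitor cells themselves (10) summed to 19482 to 20410 in mutant and 23806 to 25455 in wild type arrays. Only 1 of them was called, the receptor kinase gene Tek, which fell by 1.48 on the log2 scale (adjusted p = 0.030). All mutant values lay below wild type in 5 of the 10 (50%, against 7.98% of all genes). They lay above it in 1, Runx1 (10%, against 8.08%). For T and NK cells, B cells and erythroid cells the ranges overlapped. Array intensities have no true zero. Below the median of every array lay 7 of 9 T and NK cell markers, 4 of 6 B cell markers and 4 of 8 monocyte and macrophage markers. The part of these shifts in the values of Rsad2, the IFIT genes or other members was not tested. Siglech, a defining marker of plasmacytoid dendritic cells, which are strong interferon producers, had a log2 fold change of -0.03 and was chosen after its value was seen.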

How the data were processed

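RNA was extracted with the PicoPure kit, amplified with Ovation Pico WTA and biotin labelled, per the labels' protocols. The authors deposited an intensity for every probe set, and RMA, which corrects background, normalizes arrays together and summarizes probes, is named per the submitters' processing notes, with version, settings and build not given in the sources used here. Values are all positive and linear, so log2 was taken of each deposited intensity. Precision is limited by the number of arrays. No pair of arrays shared more than 99 exactly equal deposited values among 45101 probe sets.

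Of 45101 probe sets, 64 were controls, 9160 named no gene in the platform annotation, 932 several and 34945 a single gene. The brightest of a gene's probe sets was kept, and 17 of the 43 measured members had more than 1. The comparison used lmFit and eBayes of limma 3.58.1 under R 4.3.3, without covariates, two-sided, with Benjamini-Hochberg adjustment over all genes. Members, lists and tests were chosen with earlier results of these data known. Genes named by rule were members called or without overlap, the member of each role with the largest change, Rptor, Ly6a, the Y-linked genes and the 2 genes of each other pathway list with the smallest p. Other members are given more briefly, and array values of Ifit2, Mx1, Mx2 and Oasl2 were added after they were seen. The fit was tested on data simulated with the spread of these arrays. There 30 of 75 genes changed 2-fold were called (40%) and 74 of 75 changed 4-fold (98.7%), with 6 false calls. A member changed about 2-fold could thus go uncalled. Alternatives were a replicate block, median centring, quantile normalization again, the mean of probe sets, leaving out dim genes, trend and robust fitting, an adjusted p under 0.10, the 4 arrays without Y-linked signal and each array left out.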

Additional observations from a re-analysis of the deposited data

How the results depend on the processing

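Over all genes 20 were called. The count was 10 with a replicate block, 40 with trend and robust fitting, 49 at an adjusted p under 0.10, 0 among the 4 arrays without Y-linked signal (with the spread taken from the mutants) and 12 probe sets when probe sets were tested singly, a setting chosen after seeing the data. Leaving out 1 array gave 5 (without wild type array 3) to 31 (without wild type array 1), with 10 and 9 without mutant arrays 1 and 3. Among members the count of 1 became 0 with the replicate block, the mean of probe sets, the 4 arrays without Y-linked signal, probe sets tested singly and each array left out (0 to 0). In every setting that called a member it was Rsad2 alone. The members' median of -0.11 was -0.23 with the mean of probe sets and with probe sets tested singly, and -0.37 among the 4 arrays without Y-linked signal. It ran from -0.23 to -0.0671 with 1 array left out, the lowest without wild type array 3 and the highest without wild type array 1, where the median of all genes was -0.03 and -0.11. For the 14 named members 78 of 208 values under the alternatives equalled the value reported, mostly since those settings leave a fold change as it is, and of the other 130 values 127 kept their direction. The exceptions were Irf9 (-0.28 among the 4 arrays) and Usp18 (-0.89 among the 4 arrays and, with 1 array left out, -0.18 without wild type array 2 to 1.07 without wild type array 1). The cause of these shifts was not tested beyond fewer arrays or probe sets entering the fit. No detection calls were used, so how far dim members such as Mx2 lie above background is unknown. The replicate numbers were not taken as a pairing because the labels do not say that they pair arrays. Same-numbered arrays of the groups correlated at 0.18, -0.03 and 0.06 in their deviations, and differently numbered ones at -0.16 to 0.09. The highest of these values is that of the arrays numbered 1, so they cannot decide whether arrays were paired.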
